A study of Mus musculus with 2 samples.

Results

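Cells chosen as neutrophils by the rule below made up 264 of the 9247 trace cells that passed the filters, or 2.85% (95% Clopper-Pearson interval 2.53% to 3.22%). The name is that of the rule, and some chosen cells described below also carried joint tissue, haemoglobin or primary granule RNA. Over the whole series 15780 cells passed. A cell passed with 500 or more detected genes and 10% or less of its UMIs (unique molecular identifiers, each standing for 1 captured RNA molecule) from mitochondrial genes. A passing trace cell was taken as a neutrophil when S100a8 and S100a9 together had 20 or more UMIs and at least 1 of the granule genes Camp, Ngp, Ltf, Retnlg and Mmp8 was detected. The cells were then ordered from immature (Camp, Ngp, Ltf) to mature (Retnlg, Mmp8) granule genes. These 7 genes therefore describe the selection and the order and are no finding.

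The series held 1 trace and 1 pulse library of cells sorted from knee joint cartilage of Procr-CreER;tdTomato mice, in which tamoxifen lets the Procr-driven recombinase switch on a red reporter that the cell and its descendants keep. All mice of both groups carried both alleles and received tamoxifen at 4 weeks of age. The trace mice were taken 4 weeks later and the pulse mice 2 days later, and each library pooled 3 mice. The gate kept live tdTomato-positive cells negative for CD45, Ter119 and CD31, so a gate on the pan-leukocyte protein CD45 stood between neutrophils and the library. With 1 library a group there is no replicate error and no test of a condition or of an order within the library. Intervals below cover counting error only.

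Neutrophils are short-lived phagocytes made in bone marrow. Their precursors divide and fill granules in a set sequence: primary (azurophil) granules with myeloperoxidase and serine proteases at the promyelocyte stage, secondary (specific) granules with lactoferrin and cathelicidin at the myelocyte stage, and tertiary (gelatinase) granules later. Mature cells stop dividing, gain chemokine and chemoattractant receptors, leave the marrow and can produce interleukin 1 and chemokines in inflamed tissue such as the synovial joint.

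Beside the rule genes, the chosen cells carried transcripts of further neutrophil genes that the rule did not use. Ptprc, which encodes CD45, had a UMI in 224 of 264 chosen cells (84.8%), against 260 of 8983 other trace cells (2.89%). The cells averaged 3.09 Ptprc UMIs (95% Poisson interval 2.88 to 3.31), and the other trace cells 0.0698. At least 1 UMI of the neutrophil surface antigen gene Ly6g was found in 26 chosen cells and in 0 of the other trace cells, which allows a share of up to 0.0411% of them by the Clopper-Pearson interval. For the G-CSF receptor gene Csf3r it was 142 chosen cells and 31 others, for gelatinase B (Mmp9) 107 and 7, for Cd177 73 and 1, and for haptoglobin (Hp) 138 and 28. These shares were higher in the chosen cells although their median depth, 2407.5 UMIs, was below the 3645 UMIs of the trace library. The reporter went the other way. Tdtomato had a UMI in 12 chosen cells (4.55%) and in 2048 other trace cells (22.8%), a mean of 0.0682 UMIs a cell (0.0404 to 0.108) against 0.343 (0.331 to 0.355). Procr averaged 0.0417 UMIs in chosen cells and 0.490 in the others. Reporter and Procr transcripts were thus rarer per cell among the neutrophils than among the other cells of the same sort.

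The S100a8 and S100a9 sum, the calprotectin subunits, left few cells near the threshold. Of the passing trace cells 8163 had 0 UMIs of either gene and 786 had 1 to 9. Just outside the threshold lay 7 cells with 10 to 19 UMIs. Just inside it were 5 chosen cells with 20 to 39 UMIs, their lowest, median and highest sums being 28, 34 and 39, and 3 of these 5 had over 5% of their UMIs from cartilage and fibroblast genes. At 100 or more UMIs were 234 of the 264 chosen cells. S100a8 and S100a9 together made up 16.7% of all UMIs in the chosen cells and 0.0140% in the other trace cells. No barcode of a chosen cell occurred in the pulse library, although the 2 libraries shared 16 barcodes.

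**Figure D1:**
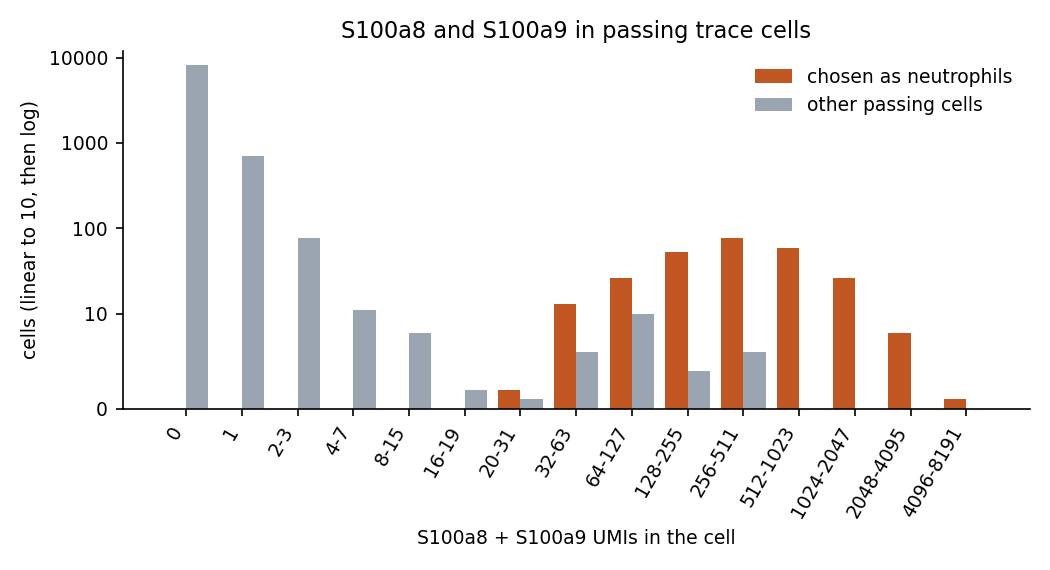
Number of passing trace cells (vertical axis, linear to 10 and then logarithmic) by the S100a8 and S100a9 UMI sum of the cell (horizontal axis), for the 264 chosen cells and the other 8983. Most other cells lie at 0 or 1 UMI, and 234 chosen cells lie at 100 or more.

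By the same rule the pulse library held 5 such cells among 6533 passing cells, 0.0765% (0.0249% to 0.179%). The trace share of 2.85% was above that interval. The pulse cells had S100a8 and S100a9 sums of 877, 444, 294, 371 and 30 UMIs. Their summed Camp, Ngp and Ltf UMIs were 179, 129, 112, 48 and 0 in the same order, and their Retnlg and Mmp8 UMIs 0, 0, 0, 2 and 1. All but the last of these cells thus lay toward the immature end, and 0 of the 5 had a UMI of Il1b or Cxcl2. Whether time after tamoxifen, mice or the sort set the difference in share cannot be told apart with 1 library each.

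The order was a per-cell score, the log2 of Retnlg and Mmp8 UMIs plus 1 over Camp, Ngp and Ltf UMIs plus 1. Its lowest, median and highest values were -10.35, -1.05 and 6.25. The cells were divided by rank into 3 equal groups of 88, called the early, middle and late group. They are ranges of a score, not cell types. Within 0.5 of the limit between the early and middle group lay 16 cells and within 0.5 of the upper limit 24, including 8 cells tied at a score of 1. Mature genes were not detected in 38 cells, immature genes in 54, and 82 cells had 10 or more UMIs of both groups.

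Camp encodes the cathelicidin precursor, Ngp neutrophilic granule protein, Ltf lactoferrin, Retnlg resistin-like gamma and Mmp8 neutrophil collagenase. Their levels, as counts per 1000000 of the summed UMIs of a group (CPM), follow the rule by construction. Camp had 32518, 9988 and 222 CPM in the early, middle and late group. Ngp had 13686, 7607 and 738 CPM, and Ltf 4550, 2805 and 38.6 CPM. Retnlg had 1019, 7093 and 6787 CPM, and Mmp8 233, 1160 and 940 CPM. Per cell, the lowest, median and highest sums of Camp, Ngp and Ltf were 29, 184 and 1303 UMIs in the early group, 0, 37 and 545 in the middle group and 0, 0 and 22 in the late group. For Retnlg and Mmp8 they were 0, 2 and 47, then 0, 19.5 and 115, and 1, 11 and 80 in the same order of groups. For S100a8 and S100a9 they were 34, 633.5 and 4991 in the early group, 36, 297.5 and 2072 in the middle group and 28, 278 and 816 in the late group. Single cells of all 3 groups thus overlapped in the S100 sum, while the early and late group did not overlap in the immature sum. Both mature genes were near their late level already in the middle group, while the immature genes differed by the larger ratio between the middle and the late group. Camp lies at chr9:109847379-109849617, Ngp at chr9:110419747-110423012, Ltf at chr9:111019271-111042767, Mmp8 at chr9:7558456-7568485 and Retnlg at chr16:48872621-48874496 (mm10).

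Because these 5 genes set the order, their promoters are shown, each with 250 bases before and 50 after the RefSeq transcription start (GRCm38.p6, gene strand). They were searched on both strands for TTGCNNAA, the core that C/EBP factors bind, and matches are in capitals. C/EBP epsilon is the factor of the secondary granule stage. The windows are Camp chr9:109849407-109849706 (minus strand), Ngp chr9:110419558-110419857, Ltf chr9:111019042-111019341, Retnlg chr16:48872358-48872657 and Mmp8 chr9:7558179-7558478 (plus strand).
Camp: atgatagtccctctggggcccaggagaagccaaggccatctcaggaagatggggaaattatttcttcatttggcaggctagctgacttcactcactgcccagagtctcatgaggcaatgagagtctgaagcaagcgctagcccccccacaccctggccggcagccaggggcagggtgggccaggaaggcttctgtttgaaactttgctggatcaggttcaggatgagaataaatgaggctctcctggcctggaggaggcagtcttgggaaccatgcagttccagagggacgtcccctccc
Ngp: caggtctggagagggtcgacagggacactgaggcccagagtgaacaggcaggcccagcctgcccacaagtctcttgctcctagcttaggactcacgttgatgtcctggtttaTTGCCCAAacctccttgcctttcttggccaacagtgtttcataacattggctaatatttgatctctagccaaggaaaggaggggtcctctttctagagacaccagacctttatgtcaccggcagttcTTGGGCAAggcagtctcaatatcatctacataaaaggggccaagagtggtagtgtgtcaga
Ltf: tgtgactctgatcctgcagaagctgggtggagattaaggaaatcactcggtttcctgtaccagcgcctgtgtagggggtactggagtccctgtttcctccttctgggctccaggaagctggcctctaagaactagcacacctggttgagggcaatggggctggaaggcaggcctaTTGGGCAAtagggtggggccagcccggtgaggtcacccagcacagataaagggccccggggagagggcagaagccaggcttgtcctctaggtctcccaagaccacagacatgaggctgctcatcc
Retnlg: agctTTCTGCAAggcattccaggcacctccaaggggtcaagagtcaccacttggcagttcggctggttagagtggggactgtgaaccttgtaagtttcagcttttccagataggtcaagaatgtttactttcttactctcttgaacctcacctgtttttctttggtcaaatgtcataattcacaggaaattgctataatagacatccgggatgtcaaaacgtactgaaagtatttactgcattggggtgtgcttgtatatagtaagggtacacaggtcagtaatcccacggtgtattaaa
Mmp8: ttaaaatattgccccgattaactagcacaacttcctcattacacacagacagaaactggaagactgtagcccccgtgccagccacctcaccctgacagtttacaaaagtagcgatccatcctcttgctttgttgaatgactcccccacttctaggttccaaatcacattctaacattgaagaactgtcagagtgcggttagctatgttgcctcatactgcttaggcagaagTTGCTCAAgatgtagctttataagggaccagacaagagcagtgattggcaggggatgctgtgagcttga
The core occurred in the windows of Ngp, at 2 places, Ltf, Retnlg and Mmp8 but not in that of Camp, so genes of both ends of the order held it. With S100a9 it was present in 5 of the 7 rule genes, against 3547 of 32851 RefSeq promoters (10.8%). In 8 further genes described below (Lcn2, Chil3, Elane, Prtn3, Cxcl2, Il1b, Ccl6 and Cxcr2) it occurred in 1, Lcn2. The core GAGGAA of the myeloid factor PU.1 was found in 3 of the 7 and 5 of the 8 windows, against 28.3% of all promoters, and overlapped no C/EBP match. A match is only a run of letters in the window.

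**Figure D2:**
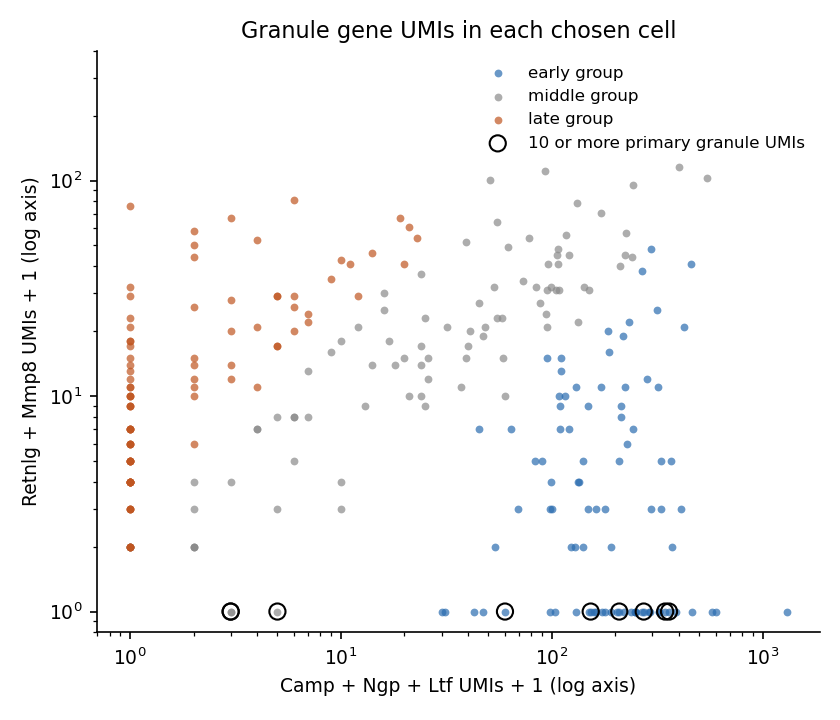
Retnlg and Mmp8 UMIs plus 1 (vertical) against Camp, Ngp and Ltf UMIs plus 1 (horizontal), both on log axes, 1 point for each of the 264 chosen cells coloured by group. Rings mark the 9 cells with 10 or more UMIs of Elane, Prtn3, Mpo and Ctsg, 6 in the early group and 3 in the middle group.

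Depth and RNA content moved with the order. The lowest, median and highest UMI totals of a cell were 867, 3376.5 and 14213 in the early group, 1013, 2430.5 and 20957 in the middle group and 926, 1807 and 9944 in the late group. The median numbers of detected genes were 1320.5, 901.5 and 713.5. After each cell was thinned to 1000 UMIs the medians were 517, 504.5 and 496, much closer together than the unthinned ones. Ribosomal protein genes made up 9.48%, 7.79% and 4.99% of the summed UMIs of the groups and mitochondrial genes 0.934%, 0.903% and 0.595%. Over single cells the median ribosomal shares were 6.33%, 3.27% and 2.59% and the median mitochondrial shares 0.566%, 0.336% and 0.144%. Deep cells weigh more in the sums than in the medians. Their part in the gene differences below was not tested.

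Across all 2051 genes with 100 CPM or more in the early or late group, the 7 rule genes left out, 577 genes (28.1%) were 2-fold or more higher in the late group and 345 (16.8%) 2-fold or more lower. The median log2 ratio was 0.35, and with it set to 0 the split was 407 higher and 490 lower. The counts for the gene groups below are read against these shares. A gene under 50 CPM in the early or late group reached the floor only through the other. Its 2-fold call was then fixed by the floor, so a count of such genes is no test of a direction. The shares over all genes hold such genes too. Of the 577 higher genes, 219 were lower in the chosen cells as a whole than in the other trace cells. This was near the share over all genes, 752 of 2051, and 111 of the 345 lower genes were so too.

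RNA of the joint tissue was present in the chosen cells and unevenly spread. The 8 chondrocyte markers summed to 4473, 8358 and 12312 CPM in the early, middle and late group, and to 43144 CPM in the other trace cells. Over 5% of UMIs from the chondrocyte and fibroblast lists were found in 14 cells, 2, 7 and 5 by group. Without them the sums were 1569, 4548 and 4178 CPM. These sums still hold cells just under the 5% limit. The deepest chosen cell, a middle cell with 20957 UMIs, had 4.65% from the 2 lists. The medians over single cells were 483, 655 and 926 CPM, against 30490 CPM in the other trace cells. Type X collagen (Col10a1), made by hypertrophic chondrocytes, had 37.1, 89.8 and 1157 CPM, and its log2 ratio of late over early group was 4.96 with all cells and 1.02 without the 14. With cells ordered by Retnlg and Mmp8 alone, the median log2 ratio of the chondrocyte list was -3.89 in place of 2.32. Of the 12 largest ratios, those of Fabp4 (a fatty acid carrier), Col9a3 (type IX collagen), Fmod (fibromodulin), Col10a1, Eml1, Adamts5 (an aggrecanase), Lox (lysyl oxidase), Stard13 and Crispld1 belonged to genes that were lower in all chosen cells together than in the other trace cells, and only Ccl6, Aqp9 and Nlrp3 to genes that were higher there. For every neutrophil list described below, the median ratio kept its sign without the 14 cells. Some markers of other white blood cells were at 0 and some were not. The 264 cells had 0 UMIs of Cd79a and Ms4a1 (B cells) and of Cd3e, Trbc2, Klrb1c and Il7r (T and natural killer cells). Csf1r, Ccr2 and Ms4a6c (monocytes) and 9 of 10 genes of eosinophils, basophils and mast cells also had 0. Cd3d, also a T cell gene, had 28 UMIs in 22 chosen cells, 32.4 CPM against 0.104 CPM in the other trace cells. The macrophage gene Adgre1 had 16 UMIs in 10 cells, 18.5 CPM against 0.833 CPM. Of C1qa, C1qb and C1qc there were 4, 3 and 4 UMIs, and of Cd79b 1. The dendritic list, with 3 of 6 genes detected, summed to 10.6, 10.8 and 4.82 CPM by group and to 34.4 CPM in the others. The whole T and natural killer list, with 2 of 6 genes detected, summed to 87.3, 86.2 and 38.6 CPM by group and to 7.52 CPM in the other trace cells. The B lineage list, with 4 of 7 detected, summed to 66.2, 82.6 and 33.7 CPM and to 481 CPM in the others. Of the monocyte and macrophage list, 9 of 12 genes were detected, at a summed 119, 101 and 178 CPM by group and 431 CPM in the other trace cells. The 4 haemoglobin genes, whose reads can be split between near-identical copies, rested on 4 cells with 10 or more UMIs, 3 of them in the middle group. The 8 erythroid genes summed to 18.5, 7219 and 2102 CPM by group and to 557 CPM in the other trace cells. The part of these transcripts in the results was not tested.

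Primary granule genes were found in the early and middle group, and in the late group the whole list had 1 UMI. Of 8 listed genes 5 reached the floor, 0 were higher and 5 lower. All 5 were under 50 CPM in the late group, so the floor fixed these calls. Elane (neutrophil elastase) had 336, 359 and 0 CPM in the early, middle and late group and was at least 23.2-fold lower in the late than in the early group, with 3 UMIs taken for the late group in place of 0. Prtn3 (proteinase 3) had 400, 309 and 0 CPM, at least 27.6-fold lower, and Mpo (myeloperoxidase) 172, 180 and 0 CPM, at least 11.9-fold lower. Ms4a3, a membrane protein of granulocyte precursors, had 114, 64.7 and 0 CPM. Serpinb1a, an inhibitor of these proteases, had 148, 57.5 and 4.82 CPM, the last from 1 UMI, and was 30.8-fold lower (5.30 to 1236).

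These transcripts came from few cells. Elane was detected in 6 early, 4 middle and 0 late cells. The 6 early cells with 10 or more summed UMIs of Elane, Prtn3, Mpo and Ctsg had 13, 15, 217, 16, 11 and 64 of them beside 59 to 359 UMIs of Camp, Ngp and Ltf. The 3 middle cells had 159, 56 and 42 UMIs, with 4, 2 and 2 UMIs of Camp, Ngp and Ltf and 0 of Retnlg and Mmp8. Their scores were -2.32, -1.58 and -1.58, and they had few UMIs of either gene group. Without the 9 cells the counts were 514 higher and 308 lower among 2028 genes at the floor. When cells were ordered by Camp, Ngp and Ltf alone, the median log2 ratio of the primary granule list was 3.20 in place of -4.54.

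Secondary granule genes were mostly lower in the late group. Of 10 genes at the floor 7 were lower and 1 was higher, with a median log2 ratio of -2.40, and the listed genes summed to 10272, 5531 and 3717 CPM. With cells ordered by Retnlg and Mmp8 alone that median was 0.078. In the main order Chil3, Cd177 and Itgb2l were under 50 CPM in the late group and Dhrs9 in the early group. The floor fixed their calls. Chil3 (chitinase-like 3, Ym1) had 1318, 147 and 9.64 CPM and was 137-fold lower (37.6 to 1132), the last level from 2 UMIs. A Chil3 UMI was present in 69, 16 and 1 of 88 cells, with lowest, median and highest counts of 0, 3 and 34 in the early group, 0, 0 and 20 in the middle group and 0, 0 and 2 in the late group. Thinned to 1000 UMIs, 55.2%, 9.09% and 1.15% of cells had one, and 0.0462% of other trace cells. At equal depth too, Chil3 was detected mainly in the early group.

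Cybb, the gp91phox subunit of the NADPH oxidase stored in specific granule membranes, had 903, 384 and 149 CPM and was 6.04-fold lower (4.18 to 9.03). Cd177, a surface glycoprotein, had 254, 133 and 28.9 CPM, 8.78-fold lower. Anxa1 (annexin A1) had 601, 356 and 77.1 CPM, 7.79-fold lower, and Itgb2l, an integrin beta chain-like gene, 106, 111 and 14.5 CPM, 7.32-fold lower, although the log2 ratio of Itgb2l was 0.75 with cells ordered by Retnlg and Mmp8 alone. Lcn2 (lipocalin 2), which binds bacterial siderophores, spanned the order with 3113, 2105 and 1596 CPM and medians of 11.5, 5 and 2 UMIs a cell. The exception in the list was Dhrs9, a short-chain dehydrogenase gene, with 18.5, 101 and 198 CPM, 10.7-fold higher. Wfdc21, a whey acidic protein family gene, stood outside the lists with 2424, 1447 and 419 CPM, 5.78-fold lower.

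Tertiary granule genes were mixed. Of 6 genes at the floor 3 were higher and 0 lower. The call of Slc11a1, under 50 CPM in the early group, was fixed by the floor. Mmp9 had 180, 374 and 453 CPM, 2.52-fold higher in the late group (1.82 to 3.49), but with cells ordered by Camp, Ngp and Ltf alone its log2 ratio was -0.00062. Slc11a1 (Nramp1), a metal transporter of phagocytes, had 7.94, 89.8 and 125 CPM, 15.8-fold higher, and Asprv1, an aspartic protease, 68.8, 39.5 and 323 CPM, 4.69-fold higher. Adam8 had 447, 1099 and 882 CPM and stayed just under 2-fold at 1.97. Padi4, the enzyme that citrullinates histones, had 138, 129 and 125 CPM, and Arhgap15, a Rac GTPase-activating protein, 328, 345 and 178 CPM. With cells ordered by Retnlg and Mmp8 alone the log2 ratio of Padi4 was 1.08 in place of -0.14. Slc11a1 and Mmp9 had most of their difference between the first and the middle group.

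**Figure D3:**
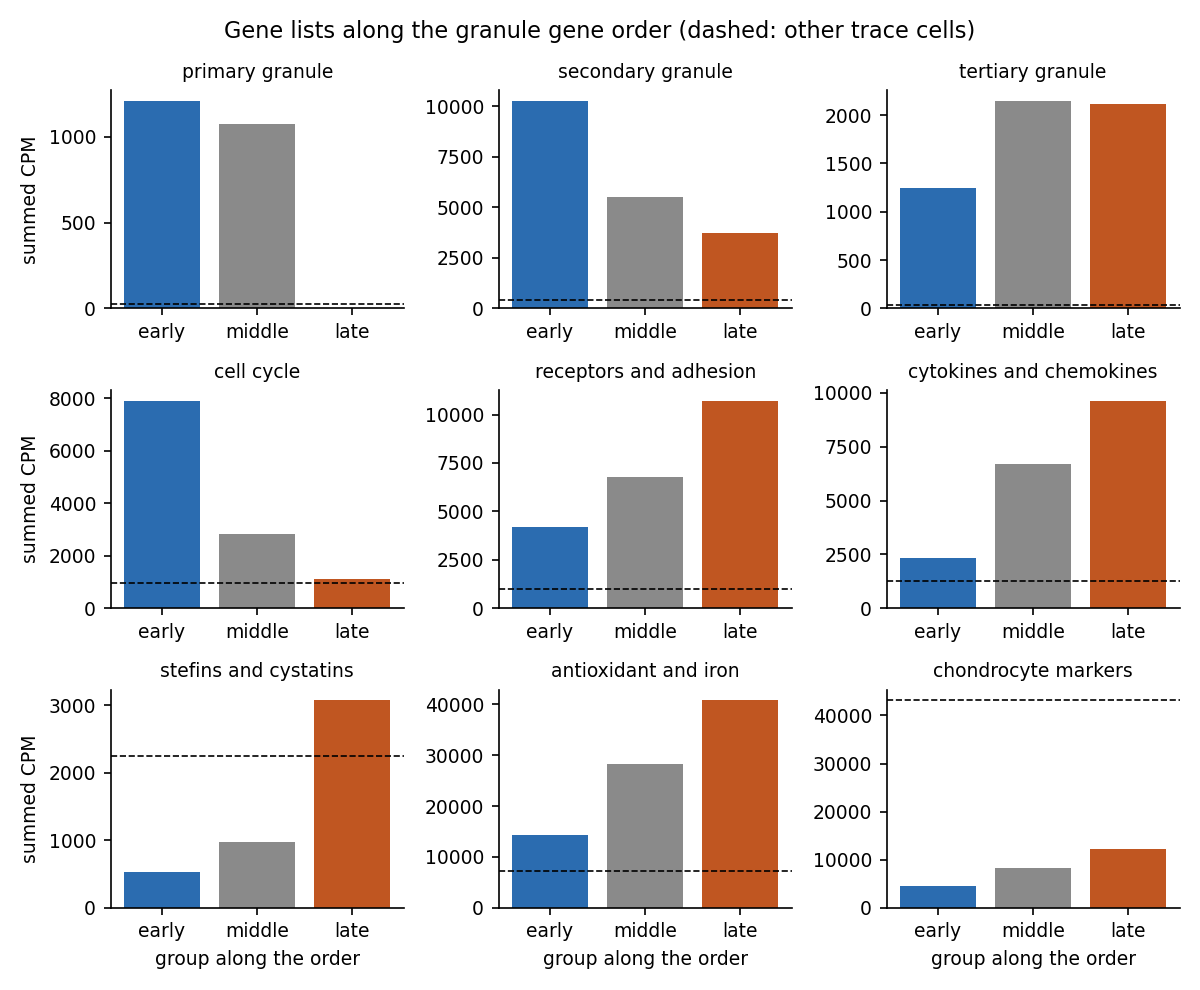
Summed CPM of 9 gene lists in the early, middle and late group (bars), with the other trace cells as a dashed line. The primary granule list is at 1210, 1074 and 4.82 CPM, the cell cycle list at 7903, 2816 and 1094 CPM and the cytokine list at 2332, 6713 and 9646 CPM.

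Cell cycle genes were concentrated in the early group. Of 12 genes at the floor 12 were lower in the late group and 0 higher, with a median log2 ratio of -3.23. Mki67, Top2a, Ccnb2, Cenpf, Cenpa, Hmgn2 and Pcna were under 50 CPM in the late group, so the floor fixed their calls. The count is therefore no test of a direction. Without the floor, all 27 listed genes summed to 7903, 2816 and 1094 CPM in the early, middle and late group. The proliferation marker Mki67 had 357, 43.1 and 0 CPM and was at least 24.7-fold lower. Topoisomerase gene Top2a had 331, 21.5 and 0 CPM, at least 22.9-fold lower, and the mitotic cyclin Ccnb2 217, 10.8 and 0 CPM, at least 15.0-fold lower. Hmgn2, a nucleosome-binding protein, had 410, 82.6 and 14.5 CPM, 28.4-fold lower, and the replication clamp Pcna 101, 10.8 and 9.64 CPM, 10.4-fold lower. Of the 12 lowest ratios over all genes, the condensin subunit Smc2, the spindle proteins Nusap1 and Prc1 and the histone gene Hist1h2ap also belonged to dividing cells, with Hist1h2ap uncertain because its reads can be shared among histone copies.

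Counted per cell over 15 mitosis and S phase genes, 41 early, 5 middle and 2 late cells had 2 or more UMIs. At 1000 UMIs a cell the shares were 32.2%, 1.14% and 1.15%, and 1.13% in the other trace cells. The thinned shares of the middle and late group rest on 1 cell each. Unthinned, the shares were 46.6%, 5.68% and 2.27%, and 2.60% in the other trace cells. The early group was thus above the others by either count. No phase of the cycle was called.

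Surface receptors were mostly higher in the late group. Of 26 receptor and adhesion genes at the floor 18 were higher and 2 lower, with a median log2 ratio of 1.84. Cxcr2, Selplg and Ptafr were under 50 CPM in the early group and Ly6c2 in the late group, so the floor fixed their calls. Cxcr2, the receptor for neutrophil-attracting chemokines, had 31.8, 226 and 453 CPM, 14.3-fold higher (7.79 to 28.6), and was detected in 8, 33 and 55 of 88 cells. At 1000 UMIs the shares were 2.30%, 19.3% and 37.9%, and 0.150% in the other trace cells. Csf3r had 185, 341 and 815 CPM, 4.40-fold higher (3.31 to 5.90). The selectin ligand Selplg, used in rolling on vessel walls, had 23.8, 79.0 and 140 CPM, 5.87-fold higher. The C-type lectin Clec4d had 119, 449 and 1210 CPM, 10.2-fold higher, and the platelet activating factor receptor Ptafr 45.0, 119 and 260 CPM, 5.79-fold higher. The 2 lower genes were Ly6c2, a Ly6C antigen gene, with 204, 126 and 19.3 CPM, 10.6-fold lower, and Trem3 with 357, 198 and 145 CPM. Cxcr4, which holds neutrophils in marrow, had 82.0, 39.5 and 77.1 CPM and stayed under the floor.

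Genes of secreted mediators, listed together with the enzyme gene Ptgs2, were higher in the late group. All 11 of 17 listed genes at the floor were 2-fold or more higher in the late group and 0 were lower, with a median log2 ratio of 2.64. Il1b, Ccl6, Ccl3, Cxcl3, Il1f9 and Ptgs2 were under 50 CPM in the early group, so the floor fixed their calls. The count is therefore no test of a direction. Without the floor, all 17 listed genes summed to 2332, 6713 and 9646 CPM in the early, middle and late group. Cxcl2, a chemokine that attracts neutrophils, had 225, 887 and 2444 CPM, 10.9-fold higher (8.62 to 13.8). Its lowest, median and highest counts were 0, 0 and 45 in the early group, 0, 0 and 39 in the middle group and 0, 3 and 118 in the late group, with 11, 36 and 65 cells detected. Il1b (interleukin 1 beta) had 42.3, 298 and 776 CPM, 18.3-fold higher (11.0 to 32.8), in 7, 25 and 50 cells. Ccl6, a CC chemokine of mice, had 31.8, 463 and 1374 CPM, 43.3-fold higher (24.4 to 84.7), in 7, 33 and 68 cells. Single cells overlapped between groups for each of these genes, since every group held cells with 0 UMIs and every group held cells with some.

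At 1000 UMIs a cell, Il1b was detected in 3.45%, 21.6% and 43.7% of cells and in 0.439% of other trace cells. The shares for Cxcl2 were 6.90%, 30.7% and 66.7%, against 3.98%, and for Ccl6 5.75%, 25.0% and 64.4%, against 0.427%. For Il1b and Ccl6 even the early share, from 3 and 5 cells, was above that of the other trace cells, which stands as the background. That background includes cells rich in S100a8 and S100a9 that the rule left out for lack of a granule gene. Unthinned, 17 of its 55 cells with Il1b were of this kind. Il1f9, the mouse gene of interleukin 36 gamma, had 7.94, 61.1 and 116 CPM, 14.6-fold higher, Cxcl3 18.5, 71.8 and 140 CPM, 7.55-fold higher, and cyclooxygenase 2 (Ptgs2) 37.1, 273 and 231 CPM, 6.24-fold higher. Ptgs2 was at its late level already in the middle group. Nlrp3, the inflammasome sensor that leads to interleukin 1 beta release, had 15.9, 115 and 299 CPM, 18.8-fold higher, and the glycerol channel gene Aqp9 5.29, 25.1 and 116 CPM, 21.9-fold higher.

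**Figure D4:**
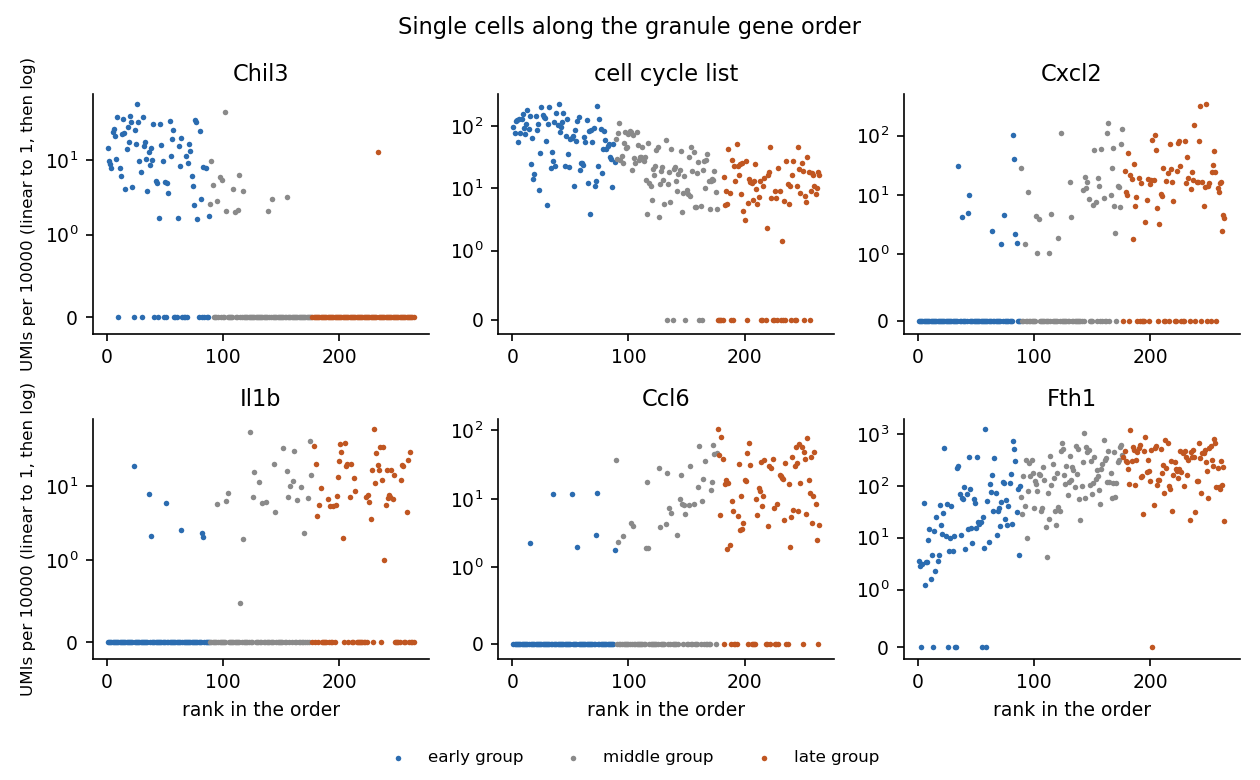
UMIs per 10000 UMIs of the cell (vertical, linear to 1 and then logarithmic) against the rank of the cell in the order (horizontal) for Chil3, the cell cycle list, Cxcl2, Il1b, Ccl6 and Fth1, 1 point a cell. Chil3 is above 0 in 69 early, 16 middle and 1 late cells, and 65 late cells have Cxcl2.

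Of the transcription factors, 4 of 17 genes at the floor were higher and 1 was lower, near the shares over all genes. The lower gene was Cebpe (C/EBP epsilon), with 154, 39.5 and 9.64 CPM, 15.9-fold lower (4.21 to 135), the last from 2 UMIs in 1 cell. Cebpb, its family member of later and emergency granulopoiesis, had 746, 1512 and 2058 CPM, 2.76-fold higher. Fosl2, an AP-1 subunit, had 79.4, 165 and 241 CPM, 3.04-fold higher, and Klf2 135, 309 and 299 CPM, 2.21-fold higher. Mxd1, a MYC antagonist, had 783, 1261 and 1480 CPM, 1.89-fold higher and so short of 2-fold. Cebpe and Cebpb thus ran in opposite directions. Cebpd, also a C/EBP gene at the floor, had 310, 219 and 280 CPM, a late over early ratio of 0.90 (0.65 to 1.25).

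Among 8 genes of survival and cell death at the floor 5 were higher and 0 lower. The antiapoptotic Mcl1 had 402, 704 and 979 CPM, 2.43-fold higher, and the kinase gene Pim1 132, 280 and 497 CPM, 3.75-fold higher. The antiproliferative genes Btg1 and Btg2 were 3.12-fold and 2.19-fold higher, and the proapoptotic Bcl2l11 (Bim) 2.07-fold. The 5 thus included genes known to favour and to oppose survival.

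Of the stefins, small inhibitors of cysteine proteases, listed with cystatin C, 4 of 4 genes at the floor were higher in the late group. The calls of Stfa2l1 and Cstb, under 50 CPM in the early group, were fixed by the floor. Stfa2l1 had 37.1, 180 and 583 CPM, 15.7-fold higher (9.03 to 29.7), and Cstdc4 66.2, 119 and 1123 CPM, 17.0-fold higher (11.2 to 26.8). They were detected in 22 and 30 of 88 late cells. Reads of this cluster of near-identical genes on chromosome 16 can be split between copies, so the single values are uncertain. Cst3 (cystatin C), 3.15-fold higher, was at 527 CPM in the chosen cells and 2193 CPM in the other trace cells. With cells ordered by Retnlg and Mmp8 alone its log2 ratio was -2.58, so it was then not among the higher genes.

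Iron and antioxidant genes held a leading transcript of the mature end. Ferritin heavy chain (Fth1) had 6601, 17283 and 26498 CPM, 4.01-fold higher (3.83 to 4.21), and 4400 CPM in the other trace cells. Its lowest, median and highest UMIs a cell were 0, 6.5 and 314 in the early group, 2, 42.5 and 259 in the middle group and 0, 50 and 299 in the late group. The granule proteoglycan gene Srgn (serglycin) was 3.47-fold higher, Ftl1 (ferritin light chain) 2.41-fold, haem oxygenase Hmox1 2.36-fold and the iron exporter Slc40a1 2.54-fold, whereas the glutathione peroxidase Gpx1 was 2.84-fold lower. In all 6 of 14 genes at the floor were higher and 1 lower.

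The NADPH oxidase, which makes superoxide, had no common direction. Of its 7 genes 1 was higher and 2 were lower, Cybb and Ncf4 (p40phox), Ncf4 with 154, 82.6 and 38.6 CPM. Cyba (p22phox) had 760, 409 and 386 CPM and Ncf1 (p47phox) 693, 575 and 574 CPM. Motility genes were likewise mixed, with 4 of 21 higher, 1 lower and a median log2 ratio of 0.00. The actin-binding thymosin Tmsb4x had 12474, 9004 and 6011 CPM, 2.08-fold lower, although its log2 ratio was 0.16 with cells ordered by Retnlg and Mmp8 alone. The kinase gene Fgr had 109, 129 and 289 CPM, 2.67-fold higher. The other higher motility genes included gelsolin (Gsn), whose log2 ratio was 1.18 with all cells and 0.10 without the 14 cells rich in joint tissue RNA.

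Of 17 glycolysis and glycogen genes at the floor 2 were higher and 1 was lower. The glucose transporter gene Slc2a3 had 490, 973 and 1571 CPM, 3.21-fold higher, and enolase Eno1 was 2.38-fold higher. Transketolase (Tkt), of the pentose phosphate pathway, had 545, 327 and 101 CPM, 5.39-fold lower. Of 18 interferon response genes 5 reached the floor, 2 higher (Ifitm2 at 3.15-fold and Slfn1 at 4.64-fold) and 1 lower (Ifitm6 at 3.65-fold). With cells ordered by Retnlg and Mmp8 alone the log2 ratio of Ifitm6 was 1.58. Ifit1, Ifit2, Ifit3, Xaf1 and Zbp1 had 0 UMIs in the 264 cells.

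**Figure D5:**
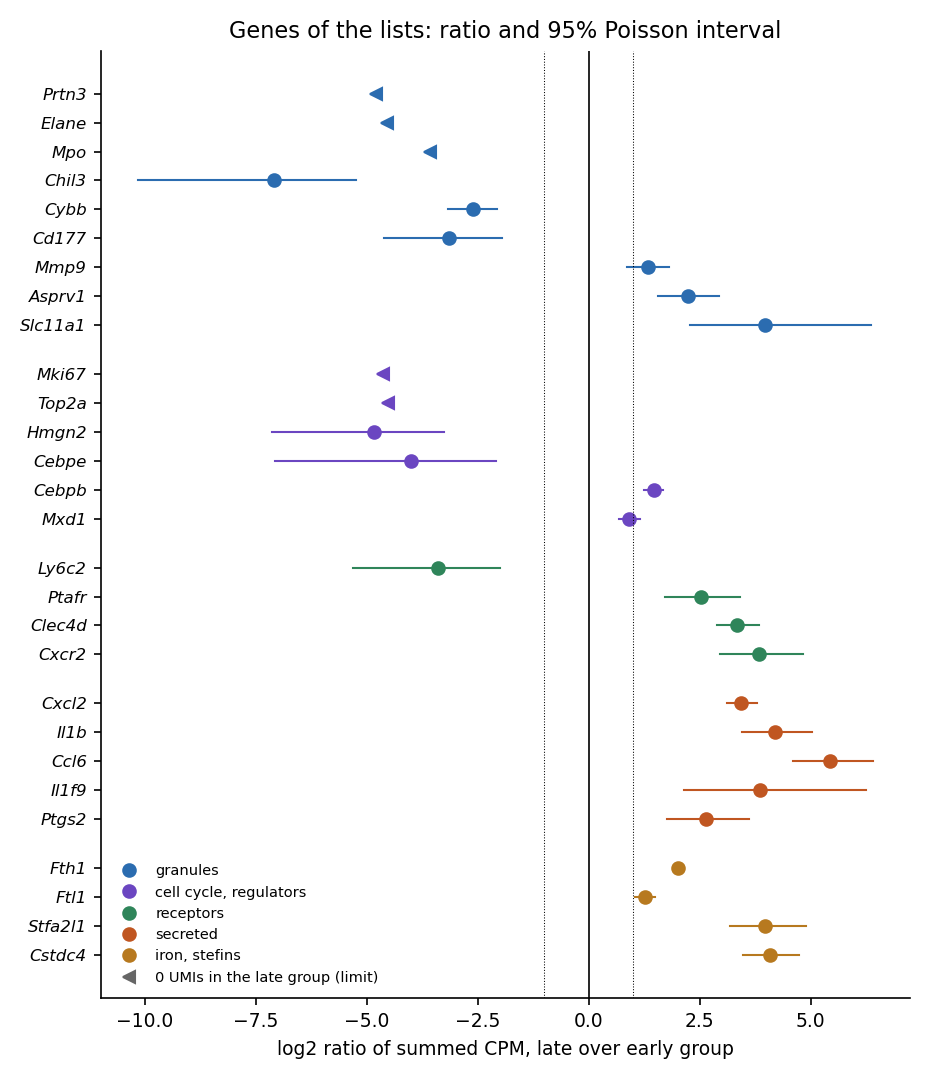
Log2 ratio of summed CPM, late over early group, for genes of the lists (points) with 95% Poisson intervals (lines) and 2-fold limits (dotted). Triangles are limits for genes with 0 UMIs in the late group, such as Elane and Mki67. The plotted receptor genes other than Ly6c2 and the genes labelled secreted, with the enzyme gene Ptgs2 among them, lie right of the upper limit.

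Set against the other trace cells, 591 of 2287 genes (25.8%) were 2-fold or more higher in the chosen cells and 715 (31.3%) lower. Because the rule chose the cells, these are descriptions. Cd177 had 161 CPM in the chosen cells and 0.0260 CPM, 1 UMI, in the others. Wfdc21 had 1628 and 1.17 CPM, Mmp9 308 and 0.260 CPM and Chil3 626 and 0.599 CPM. Krt83, a hair keratin gene, had 146 CPM in 60 chosen cells and 0 UMIs in the others, at least 1868-fold higher against 3 UMIs over the others. Ldhc, the lactate dehydrogenase known from testis, had 358 CPM in 96 chosen cells and 0.468 CPM in the others, with 508, 395 and 33.7 CPM by group. With cells ordered by Retnlg and Mmp8 alone the log2 ratio of Ldhc was 0.74 in place of -3.91. Krt83 had 122, 215 and 96.4 CPM by group, and its log2 ratio was 2.91 with that order in place of -0.34. The further genes of this rank were Ankrd22, Abca13, Clec4a2, Mrgpra2b, Padi4 and Mcemp1, between 714-fold and 998-fold.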

How the data were processed

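Cells were from 1 trace and 1 pulse 10x 3' V2 library. What the authors deposited were raw UMI counts, not normalized. Cell Ranger 7.1.0 made them per the file headers, whereas the submitters' processing notes name Cell Ranger 3.0.1 and mm10. The trace library held 40284041 UMIs in 10423 barcodes and the pulse library 23306063 in 6863, and the filters left out 1176 and 330 barcodes. Deeper cells detect more genes, so shares of cells were also given after thinning each cell to 1000 UMIs.

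UMIs were summed per group and scaled to CPM, and ratios carry exact conditional Poisson 95% intervals, shares Clopper-Pearson ones. They were called at 2-fold where the early or late group had 100 CPM or more. A group with 0 UMIs was set to 3 UMIs. The 3' counts are not per gene length, so levels are compared within a gene. The ratio code was checked on simulated data. Scrublet (scanpy 1.11.5) called 0 of 9247 trace cells as doublets, so its threshold had not worked, and no cell was removed as a doublet. The highest 5% of its scores held 496 of the 9247 trace cells (5.36%) and 6 of the 14 cells rich in joint tissue RNA (42.9%). By group it held 3, 8 and 10 of 88 early, middle and late cells. The part of doublets in the results was not tested. Sums and intervals used numpy 2.4.6 and scipy 1.17.1 in Python 3.11.15. Tables were handled with pandas 2.3.3 and anndata 0.12.19, and plots drawn with matplotlib 3.10.9. Promoters and the synonyms that matched 2 listed genes (Gm5483 as Cstdc4, Il36g as Il1f9) were from RefSeq.

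The cells, lists and tests were chosen with earlier results of these data known. The text names the 7 rule genes, up to 6 genes a list by size of the log2 ratio, the 12 highest and 12 lowest ratios, the 12 highest levels, the 12 highest folds over the other trace cells, cell type markers and sort markers. Naming by rank skipped haemoglobin, immunoglobulin, mitochondrial and ribosomal protein genes and unnamed gene predictions. Trem3, Cxcr4 and Lcn2's promoter stand outside that rule and were named after their values were seen. Cebpd, Hspa1a, Xist and Ddx3y also stand outside it. Some genes of the lists are not reported here.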

Additional observations from a re-analysis of the deposited data

How the results depend on the processing

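No paired analysis was possible because each group was 1 library and no test between groups was made. The share of 2.85% was 3.35% with 200 or more genes and 2.52% with 2 or more granule genes required. The counts of 577 higher and 345 lower among 2051 genes were 897 and 775 among 3620 with a floor of 50 CPM. With a floor of 200 CPM they were 341 and 151 among 995 genes. They were 557 and 583 among 2638 with the leading transcripts and rule genes left out of the UMI total. The added alternatives below had 2022 to 2057 genes at the floor. Scrublet's own threshold called no cell and so gave no value. Alternatives added after seeing the data left out the 14 cells rich in joint tissue RNA (595 and 408), 4 with haemoglobin (576 and 343), 9 with primary granule RNA (514 and 308) or the highest 5% of Scrublet scores (634 and 439, without 21 of the 264 cells), moved tied cells (575 and 350) or required no granule gene (560 and 325).

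Log2 ratios past 2-fold that changed sign did so in 3 settings. Without the haemoglobin cells Hbb-bt was at -0.45. Ordered by Camp, Ngp and Ltf alone, Elane was at 3.84, Mpo at 3.85, Prtn3 at 2.56, the primary granule median at 3.20, Mmp13 at 0.85 and Mmp9 at -0.00062. Ordered by Retnlg and Mmp8 alone, joint tissue genes turned: Acan -4.78, Adamts5 -3.79, Col10a1 -4.62, Col2a1 -4.24, Col9a3 -2.02, Comp -2.69, Crispld1 -3.84, Dcn -2.80, Fmod -1.95, Lox -3.73, Prg4 -3.11, Sox9 -4.03, Sparc -3.05, Stard13 -1.88 and the chondrocyte median -3.89. So did Cst3 of the stefin list, at -2.58, and F13a1 of the monocyte and macrophage list, at -2.56. In that setting Foxp1 was at -1.30, Gsn at -1.08, Hba-a1 at -0.33, Hbb-bs at -0.26, the erythroid median at -0.075, Ifitm6 at 1.58, Itgb2l at 0.75, Ldhc at 0.74, Tmsb4x at 0.16 and the secondary granule median at 0.078. The cause was not tested. No other named gene or list median past 2-fold changed sign in the 16 settings that recomputed them, while 12 named genes and 3 list medians under 2-fold did. Of 121 named genes, 64 more moved beyond the counting interval with Retnlg and Mmp8 alone, 50 with Camp, Ngp and Ltf alone, 49 after thinning and at most 26 in each other setting. Depth limits genes with few UMIs in the late group, whose 207447 UMIs put 3 UMIs at 14.5 CPM.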

Other observations

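Cells that the rule left out at its edges also carried neutrophil transcripts. With 200 to 499 detected genes and the rest of the rule met there were 76 trace cells, with a median of 841.5 UMIs and a median score of 1, and 47 of them fell in the score range of the late group. Another 27 passing cells had 20 or more S100a8 and S100a9 UMIs but none of the 5 granule genes. Of these, 5 had 10 or more primary granule UMIs, with Elane at 4408 CPM, and 3 had over 5% joint tissue UMIs. The remaining 19 had a median of 1467 UMIs, Il1b at 1087 CPM in 17 cells, Cxcl2 at 4411 CPM in 15, Cxcr2 at 322 CPM in 10, Csf3r at 597 CPM in 11 and Elane at 0. With no granule gene required, cells of this kind enter the order at a score of 0.

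Heat shock genes Hspa1a and Hspa1b, near-identical copies whose reads can be split between them, were lower in the late group than in the early and middle group. Hspa1b had 3766, 4953 and 636 CPM in the early, middle and late group and 1691 CPM in the other trace cells, and Hspa1a 2803, 2895 and 174 CPM and 944 CPM. Hspa1b was detected in 29 early and 23 middle cells, with highest counts of 227 and 579 UMIs in a cell and medians of 0. Mmp13, a collagenase also made by hypertrophic chondrocytes, had 199, 25.1 and 4.82 CPM, the last from 1 UMI, and 106 CPM in the other trace cells. Dock10, a guanine nucleotide exchange factor gene, had 122, 28.7 and 4.82 CPM. The Y-linked Ddx3y had 0 UMIs in the 264 cells and 13 in the other trace cells, and Xist 172 and 13977.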
